A study of Bos taurus with 17 samples.

Results

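Aminoacyl tRNA synthetases attach each amino acid to its transfer RNA, and their genes were followed here in bovine cells grown on plastic and on cellulose scaffolds. The members were all genes of the table whose symbol has the form of a synthetase name, which gave 35 of 12894 genes. Of these, 20 encode enzymes of the cytosol and 15, whose symbols end in 2, enzymes of mitochondria. The minimum mean of 5 normalized reads used for testing was met by 34 members, all 20 cytosolic and 14 mitochondrial ones. The leucine enzyme of mitochondria, LARS2, did not meet it, with 0 to 5.63 normalized reads per library. EARS2 and PARS2 were not analysed here. The table uses older symbols for most cytosolic members, so that WARS stands for the gene now called WARS1.

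The cells were mesenchymal stem cells from primary culture of bovine umbilical cord, studied as a source for cultivated meat. Plastic cultures were taken at day 0 without treatment, a day after seeding (3 libraries), and at day 3 (3 libraries) and day 21 (2 libraries) of myogenic differentiation. Growth medium held serum, glutamine and antibiotics. The differentiation medium held less serum, with ITS, BSA, dexamethasone, ascorbic acid 2 phosphate, glutamine, antibiotics and 3 growth factors: vascular endothelial, insulin-like and fibroblast-like growth factor. Cellulose scaffolds were sampled at day 21. On the media scaffold (4 libraries) the growth factors were in the medium, and on the smart scaffold (3 libraries) they were bound to the scaffold and absent from the medium. All groups share the same cell source, and no group carries a genetic change. The sources used here do not say how many animals gave the cells.

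Each synthetase recognises 1 amino acid and the tRNAs that carry it, and the charged tRNA then feeds the ribosome. The cytosol and the mitochondrion translate separately, and for most amino acids separate nuclear genes supply an enzyme to each. GARS and KARS are exceptions, since in human cells each makes both the cytosolic and the mitochondrial enzyme, and EPRS joins the glutamate and proline activities in 1 protein. Several cytosolic enzymes sit with the non-enzymatic proteins AIMP1, AIMP2 and EEF1E1 in the multi-synthetase complex. In human and mouse cells many cytosolic synthetase genes are targets of the amino acid response, which the transcription factor ATF4 drives when amino acids run short, and WARS is also induced by interferon.

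RNA was measured by MARS-seq, which counts the 3′ ends of polyadenylated transcripts. Values are normalized reads, that is, reads divided by 1 size factor per library, and libraries held 2197356 to 15483745 reads. The second plastic library of day 21 was the shallowest, and there 1 read was worth 3.44 normalized reads. Changes are differences between group means of log2(value + 1). The added 1 makes changes of weakly expressed genes smaller, but a library at 0 can make a change larger than the mean values give. "Rose" and "fell" mark genes with a Benjamini-Hochberg adjusted p under 0.05 in limma, and a member is called where the log2 change was also at least 1 in size. All 5 stromal markers on the list (THY1, NT5E, ENG, CD44 and PDGFRB) were detected in every group, with summed levels of 20028 to 24339 on plastic at day 21, 16309 to 18436 on the media scaffold, 10998 to 12406 on the smart scaffold, 2783 to 3276 at day 3 and 2823 to 2847 at day 0. These sums at day 21 are mostly THY1, which averaged 18122 on plastic, 15475 on the media scaffold and 10141 on the smart scaffold, against 401 at day 0. CD44 averaged 335 on plastic at day 21, 739.7 on the media scaffold and 824 on the smart scaffold, against 1429 at day 0, NT5E averaged 188 on plastic at day 21, against 298 at day 0, and ENG was at 3407 on plastic, 614 on the media scaffold and 576 on the smart scaffold, against 663 at day 0. In bulk RNA, fewer cells of a type and less RNA per cell cannot be told apart. Libraries of a group are biological replicates according to the series' design text, and p-values measure the spread between such libraries, pooled over groups. The spans of 15 of the 35 members overlap another gene in the RefSeq annotation of ARS-UCD2.0. Among them are MARS with DDIT3 (itself an amino acid response gene), AARS with DDX19B, YARS with S100PBP and VARS with LSM2. Only whole spans were compared, so it is not known whether reads of 1 gene of such a pair were counted for the other.

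By day 3 on plastic, when the cells had been moved from growth to differentiation medium, most cytosolic synthetases had fallen, by less than 2-fold in all but 1 case. Time and medium changed together here and cannot be told apart. Of the 20 cytosolic members, 14 fell and 0 rose, where 15.3% of all 10960 tested genes fell and 16.5% rose. Their median log2 change was −0.57, against −0.02 over all tested genes. In the same libraries smooth muscle markers summed to 15966 to 18629 normalized reads at day 3 and 31711 to 36331 at day 0, endothelial markers to 18.1 to 29.6 at day 3 and 5.33 to 7.89 at day 0, and blood cell markers to 12.5 to 26.2 at day 3 and 1.07 to 4.22 at day 0, and their part in these falls was not tested. Of the 14 tested mitochondrial members, 1 fell, and their median was −0.09. IARS was the only called member, where 3.73% of all tested genes were called lower and 6.27% higher.

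IARS, which charges isoleucine tRNA, had 219, 153 and 259 normalized reads in the libraries of day 3, against 499, 495 and 480.4 at day 0 (log2 change −1.25, 95% interval −1.59 to −0.92, limma, Benjamini-Hochberg adjusted p = 1.25e-05). Every library of day 3 lay well below every library of day 0. The alanine enzyme AARS, whose fall was the next in size, averaged 1291 ± 16.7 normalized reads at day 3 and 2525 ± 122 at day 0 (SD, n = 3 each, log2 change −0.97, 95% interval −1.15 to −0.78, limma, Benjamini-Hochberg adjusted p = 2.46e-07). GARS, the glycine enzyme, fell to 2961, 3076 and 3242 at day 3, against 5293, 5254 and 5472 at day 0. Its libraries stood apart by more than their own spread. Other falls were those of MARS (−0.77), which charges both initiator and elongator methionine tRNA, TARS (−0.77) for threonine, DARS (−0.76) for aspartate, NARS (−0.67) for asparagine and YARS (−0.66) for tyrosine, all as log2 changes. The 6 cytosolic members that did not pass were RARS, LARS, KARS, FARSB, VARS and QARS. VARS, the valine enzyme, had a log2 change of 0.03 (95% interval −0.26 to 0.32), and the glutamine enzyme QARS one of 0.25 (−0.02 to 0.52). Libraries did not overlap for 16 of the 20 cytosolic members, all lower at day 3, where 23.2% of all tested genes lay wholly below and 21.1% wholly above. The count of cytosolic falls was 9 without the second library of day 0.

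**Figure D1:**
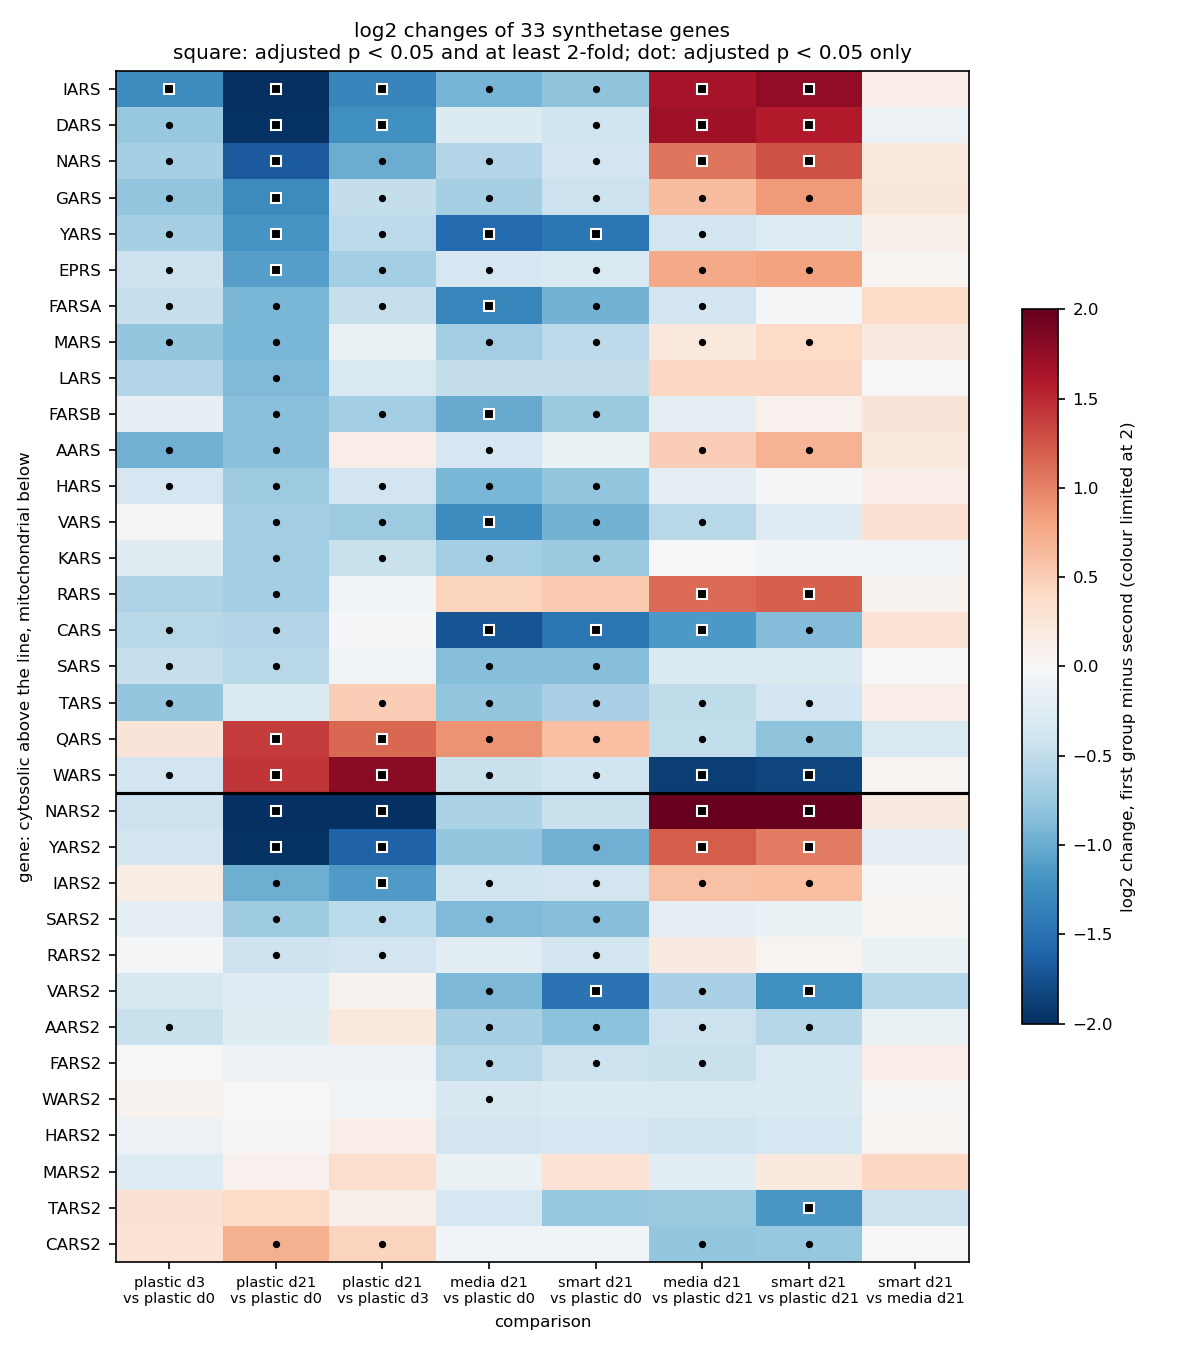
Log2 changes of 33 tested members (rows) in the comparisons (columns), as differences of log2(value + 1) from limma, with the colour scale limited at 2 in either direction, which NARS2 and IARS exceed. Squares mark called members and dots those that passed the adjusted p alone. The first column is mostly below 0 for cytosolic members (median −0.57) and near 0 for mitochondrial ones (median −0.09), and WARS and QARS stand out as higher on plastic at day 21.

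The mitochondrial member that fell at day 3 was AARS2, the alanine enzyme, with 138, 159 and 104 normalized reads at day 3 against 174, 173 and 189 at day 0 (log2 change −0.44, 95% interval −0.76 to −0.12, limma, Benjamini-Hochberg adjusted p = 0.0345). That pass was lost without the first library of day 3 or without any single library of day 0. The groups nevertheless did not overlap. IARS2, the mitochondrial isoleucine enzyme, stood at 1274 ± 139.9 at day 3 and 1139 ± 35.6 at day 0 (log2 change 0.16, 95% interval −0.07 to 0.39), beside the fall of cytosolic IARS.

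After 21 days on plastic most cytosolic members had fallen and 2 had risen. Against day 0, 6 cytosolic members were called lower and 2 higher, while 24.1% of all tested genes were called lower and 21.2% higher. By the adjusted p alone 17 of 20 fell and 2 rose, where 36.3% of all tested genes fell and 33.4% rose. The cytosolic median was −0.83 and that of all genes −0.06. Among mitochondrial members 3 of 14 were called lower and 0 higher, with a median of −0.25. With every library rescaled to the same total, the all-gene median shifted by −0.257. Then 13 rather than 8 cytosolic members were called, 11 lower and 2 higher. Of all tested genes, 3276 rather than 2636 were then called lower, and 1812 rather than 2320 higher.

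The called rises were those of WARS and QARS. WARS, the tryptophan enzyme, had 6388 and 8618 normalized reads on plastic at day 21, against 2671, 2874 and 2678 at day 0 (log2 change 1.44, 95% interval 1.16 to 1.71, limma, Benjamini-Hochberg adjusted p = 2.95e-08). Both day 21 libraries lay far above all 3 of day 0. QARS, which charges glutamine tRNA, had 1125 and 1247 on plastic at day 21 and 444, 427 and 471 at day 0 (log2 change 1.40, 95% interval 1.11 to 1.70, limma, Benjamini-Hochberg adjusted p = 1.19e-07). The groups were again fully separate. Shares of all tested genes with such separation are given only for day 3 against day 0 and for smart against media scaffold. In the other comparisons separation describes the named gene alone. These 2 genes and the mitochondrial cysteine enzyme CARS2 (0.71, adjusted p = 0.000823 in limma with Benjamini-Hochberg adjustment) were the members that rose. Blood cell markers were higher in the same libraries: the 2 of 4 listed markers analysed, CD14 and LAPTM5, summed to 74.5 to 96.2 normalized reads on plastic at day 21 and 1.07 to 4.22 at day 0, and neither was at 0. Smooth muscle markers (4 of 4 analysed) summed to 69879 to 73570 on plastic at day 21 and 31711 to 36331 at day 0, and skeletal muscle markers (4 of 9 analysed) to 78.7 to 107 on plastic at day 21 and 5.13 to 12 at day 0. The last sum is mostly TNNT3, at 72.7 on plastic at day 21 and 0.309 at day 0, while MYF6 averaged 3.10 on plastic at day 21 and 3.69 at day 0. Endothelial markers (VWF and TEK, 2 of 4 analysed) summed to 31.7 to 55.0 on plastic at day 21 and 5.33 to 7.89 at day 0. The part of these markers' cells in the changes of the synthetases was not tested.

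The largest cytosolic fall was again that of IARS, with 77.3 and 85.9 normalized reads on plastic at day 21, against 499, 495 and 480.4 at day 0 (log2 change −2.58, 95% interval −2.96 to −2.20, limma, Benjamini-Hochberg adjusted p = 1.13e-09). DARS, the aspartate enzyme of the multi-synthetase complex, fell to 169.8 and 165 at day 21, against 670.1, 699 and 625 at day 0 (log2 change −1.98, 95% interval −2.30 to −1.66, limma, Benjamini-Hochberg adjusted p = 3.87e-09). Each pair of day 21 libraries lay close together and well below day 0. NARS had 599 and 450.1 on plastic at day 21 and 1695, 1698 and 1544 at day 0 (log2 change −1.66). GARS (log2 change −1.27), YARS (−1.18) and EPRS (−1.09) were the other called falls. TARS was the 1 cytosolic member that did not pass, at 1357 and 1512 on plastic at day 21 and 1548, 2023 and 1656 at day 0 (log2 change −0.27, 95% interval −0.56 to 0.01). Against day 3, TARS rose on plastic at day 21 (log2 change 0.50, limma, Benjamini-Hochberg adjusted p = 0.00435).

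**Figure D2:**
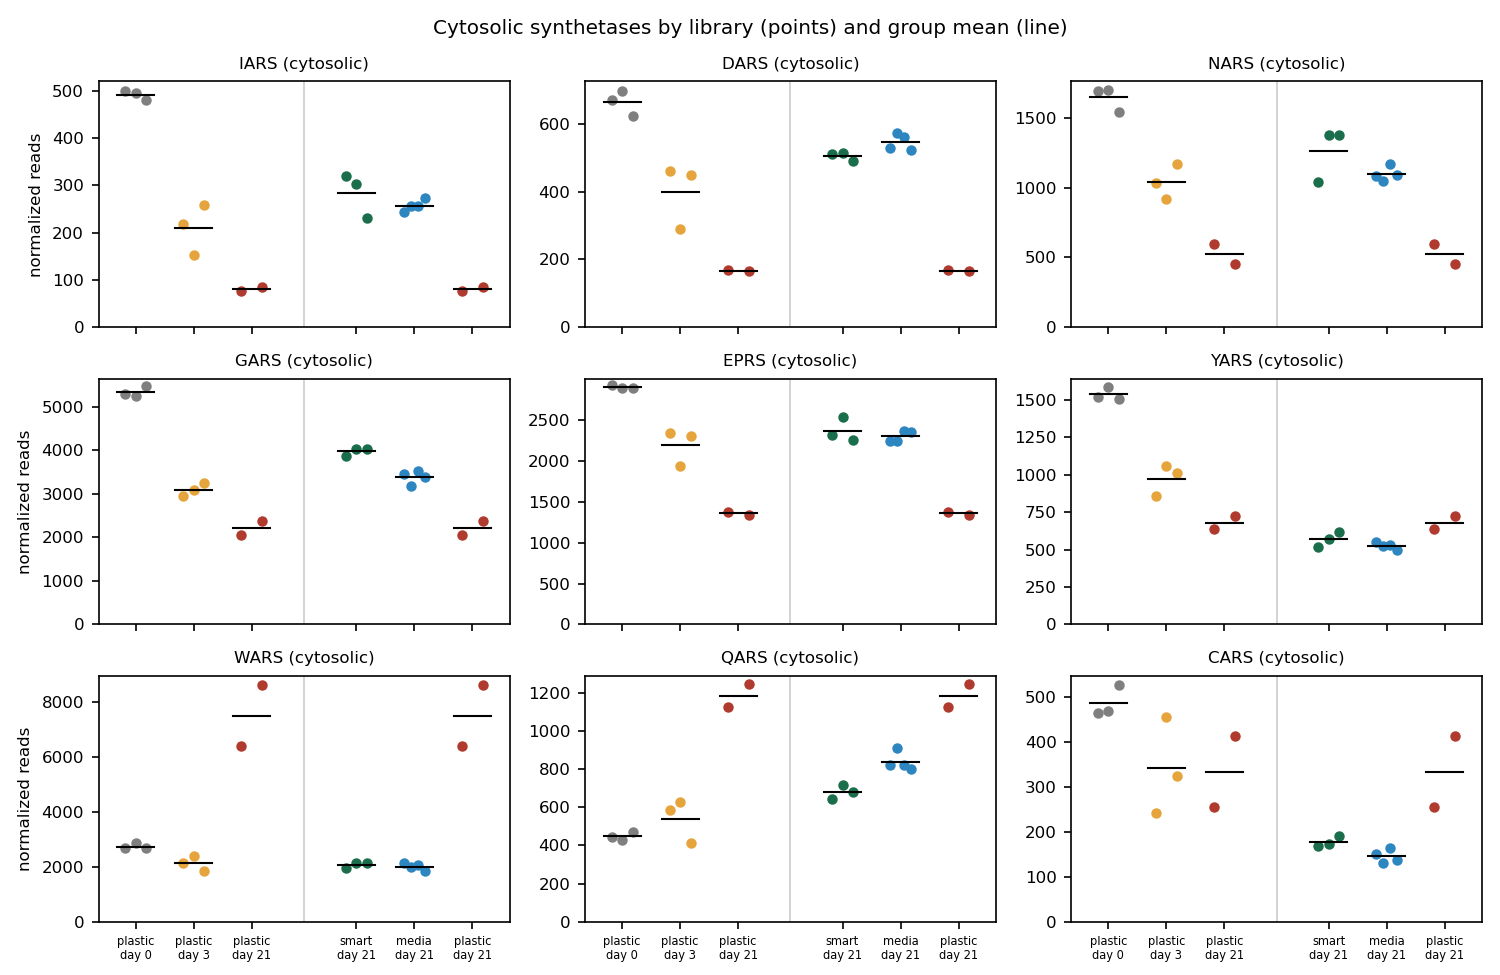
Normalized reads of 9 cytosolic members in every library, each panel on its own axis from 0, with points for libraries and lines for group means. The time course on plastic comes first and the groups of day 21 (smart scaffold, media scaffold, plastic) follow, so that the plastic libraries of day 21 are drawn in both blocks. WARS is highest on plastic at day 21, while IARS and DARS are lowest there.

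The 3 called mitochondrial falls were of genes with few reads on plastic at day 21. NARS2, the asparagine enzyme of mitochondria, had 12.4 and 0 normalized reads on plastic at day 21, which were 9 and 0 reads, against 69.6, 58.1 and 60.0 at day 0 (log2 change −4.11, 95% interval −5.56 to −2.67, limma, Benjamini-Hochberg adjusted p = 4.61e-05). YARS2, the tyrosine enzyme, had 11.0 and 3.44 at day 21 (8 and 1 reads) and 26.0, 28.3 and 29.2 at day 0 (log2 change −1.98). In NARS2 and YARS2 both day 21 libraries lay below every library of day 0. Smaller falls were those of IARS2 (−0.97), the serine enzyme SARS2 (−0.72) and the arginine enzyme RARS2 (−0.42), and the remaining 7 mitochondrial members did not pass in either direction.

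**Figure D3:**
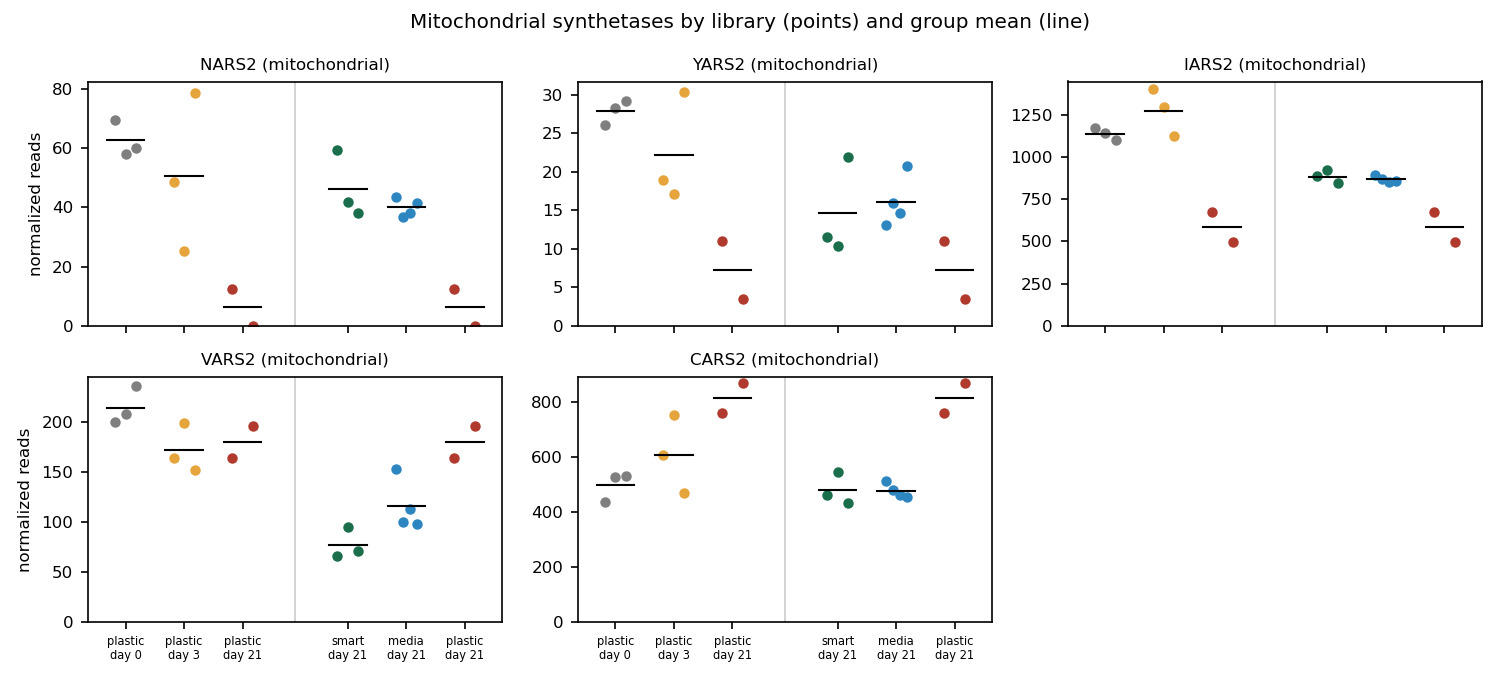
Normalized reads of 5 mitochondrial members in every library, drawn as for the cytosolic ones, with plastic at day 21 shown in both blocks. NARS2 and YARS2 are lowest on plastic at day 21, where NARS2 had 9 and 0 reads in the 2 libraries.

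Set against day 3, the same plastic libraries of day 21 showed a mixed cytosolic picture. Of 20 cytosolic members 2 were called lower and 2 higher, where 19.4% of all tested genes were lower and 15.5% higher, and the cytosolic median was −0.42 against −0.04 over all genes. By the adjusted p alone 11 fell and 3 rose, where 32.8% and 29.4% of all tested genes did. WARS averaged 7503 ± 1577 normalized reads at day 21 (SD, n = 2) and 2124 ± 279 at day 3 (n = 3), a log2 change of 1.81, and QARS changed by 1.15, a call lost with the same total in every library (0.82, where the median of all genes shifted by −0.319) and without the third library of day 3 (0.97). IARS (−1.32) and DARS (−1.22) were the called falls. AARS, whose level at day 3 was already low, stood at 1426 ± 199 at day 21 and 1291 ± 16.7 at day 3 (log2 change 0.14, 95% interval −0.07 to 0.34). In mitochondria NARS2 (−3.68), YARS2 (−1.62) and IARS2 (−1.13) were among 4 members called lower, with 0 called higher. Without the second plastic library of day 21, YARS2 (−0.90) and IARS2 (−0.91) were no longer called, which left 2. IARS2 had 675 and 498 at day 21 and 1402, 1296 and 1125 at day 3, with no overlap. The libraries of day 3 are shared by this comparison and the first one, as those of day 0 are by all comparisons with day 0.

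On scaffolds at day 21 several of the synthetases that were low on plastic were higher, and WARS was lower. Against plastic at day 21, 4 cytosolic members were called higher and 2 lower on the media scaffold, where 20.8% of all tested genes were called higher and 14.6% lower. On the smart scaffold 4 were called higher and 1 lower, where 21.4% of all tested genes were called higher and 16% lower. The shares of cytosolic members called higher were thus near those of all genes on both scaffolds. DARS, IARS, NARS and RARS were the called rises on both scaffolds. The comparisons share the 2 plastic libraries, in which the falls on plastic at day 21 were also measured. By the adjusted p alone, 8 cytosolic members rose and 7 fell on the media scaffold (all genes, 32.9% and 30.6%), and 8 rose and 4 fell on the smart scaffold (all genes, 32.8% and 31.1%). AARS, DARS, EPRS, GARS, IARS, MARS, NARS and RARS rose on each. The cytosolic medians, −0.08 on the media scaffold and 0.03 on the smart scaffold, lay near those of all genes (0.02 and 0.01), and the first turned to 0.01 without the first plastic library of day 21.

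IARS had 243, 256, 256 and 272 normalized reads on the media scaffold and 320.3, 303 and 231 on the smart scaffold, against 77.3 and 85.9 on plastic at day 21. The log2 changes were 1.64 (95% interval 1.28 to 2.00) on the media and 1.78 (1.40 to 2.16) on the smart scaffold, with limma, Benjamini-Hochberg adjusted p = 2.99e-07 and 2.11e-07. Every scaffold library lay above both plastic libraries and below all day 0 libraries. DARS had 530.2, 572, 560.5 and 524 on the media scaffold and 512, 514 and 491 on the smart scaffold, with 169.8 and 165 on plastic at day 21 (log2 changes 1.70 and 1.59, limma, Benjamini-Hochberg adjusted p = 3e-08 and 1.17e-07). NARS had 1087, 1048, 1166 and 1088 on the media scaffold and 1040.0, 1380.4 and 1374 on the smart scaffold (log2 changes 1.08 and 1.27), again above both plastic libraries. RARS, the arginine enzyme, was the called rise with the fewest reads, at 45.1, 55.7, 66.4 and 43.4 on the media scaffold, 59.4, 52.9 and 51.7 on the smart scaffold and 26.2 and 20.6 on plastic (log2 changes 1.13 and 1.2). On the media scaffold the calls of NARS (0.87), RARS (0.96) and CARS (−0.80) were lost without the second plastic library, which left 2 cytosolic members called higher and 1 lower. The call of RARS there was also lost with quantile normalization (0.96).

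WARS stood at 2139.6, 1986, 2059 and 1837 normalized reads on the media scaffold and 1946, 2154 and 2151 on the smart scaffold, against 6388 and 8618 on plastic at day 21 (log2 changes −1.89 and −1.83, limma, Benjamini-Hochberg adjusted p = 1.35e-09 and 3.51e-09). All 7 scaffold libraries lay below both plastic ones. CD14 and LAPTM5 summed to 3.28 to 6.96 normalized reads on the media scaffold and 4.95 to 5.75 on the smart scaffold, against 74.5 to 96.2 on plastic at day 21, with LAPTM5 at 0 in some libraries of each scaffold, and their part in this difference was not tested. CARS, the cysteine enzyme, had 150.2, 131, 164 and 138 on the media scaffold and 168, 173 and 189.7 on the smart scaffold, against 254 and 412 on plastic (log2 changes −1.15 and −0.87). Only the change on the media scaffold reached the fold threshold. QARS fell less, by 0.50 on the log2 scale on the media scaffold and by 0.80 on the smart scaffold.

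In mitochondria, 3 members were called higher and 0 lower on the media scaffold than on plastic at day 21, and 3 higher and 2 lower on the smart scaffold, of 14 tested. Of all tested genes 20.8% were called higher and 14.6% lower on the media scaffold, and 21.4% higher and 16% lower on the smart scaffold, so the shares of mitochondrial members called higher were near those of all genes. The mitochondrial medians were −0.27 and −0.21. NARS2 had 43.5, 36.8, 38.1 and 41.5 normalized reads on the media scaffold and 59.4, 41.6 and 37.9 on the smart scaffold, against 12.4 and 0 on plastic at day 21 (log2 changes 3.48, 95% interval 2.11 to 4.85, and 3.66, 2.22 to 5.11, limma, Benjamini-Hochberg adjusted p = 0.000186 and 0.000186). The scaffold libraries were all above the plastic ones. YARS2 had 13.1, 15.9, 14.6 and 20.7 on the media scaffold and 11.6, 10.4 and 21.8 on the smart scaffold, against 11.0 and 3.44 on plastic (log2 changes 1.21 and 1.02), and on the smart scaffold its libraries overlapped those of plastic. Without the second plastic library YARS2 was at 0.49 and 0.30 and no longer passed in either comparison. The mitochondrial counts were then 1 on the media and 3 on the smart scaffold. On the smart scaffold YARS2 was at 0.71 and no longer passed without the third smart scaffold library, and the count was then 3, as it was in edgeR. With a pseudocount of 4 the counts were 1 on the media and 2 on the smart scaffold. The call of YARS2 was lost on the media and the smart scaffold with a pseudocount of 4 (0.91 and 0.76), with the replicate number as a block (0.94 and 0.87, adjusted p = 0.0554 and 0.0698 in limma) and in edgeR (0.91 and 0.78, adjusted p = 0.112 and 0.203). On the smart scaffold it was also lost with quantile normalization (0.87, adjusted p = 0.0578 in limma) and in a limma fit of the compared groups alone (1.02, adjusted p = 0.154).

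VARS2, the mitochondrial valine enzyme, was called lower on the smart scaffold, with 66.0, 94.6 and 71.3 normalized reads against 164 and 196 on plastic at day 21 (log2 change −1.22, 95% interval −1.65 to −0.79, limma, Benjamini-Hochberg adjusted p = 5.31e-05). The groups did not overlap. TARS2, the threonine enzyme, had 6.60, 12.1 and 4.60 on the smart scaffold and 11.0 and 27.5 on plastic (log2 change −1.17), and its libraries overlapped. The call of TARS2 was lost without the second plastic library (−0.55), without the first (−1.11, adjusted p = 0.0594 in limma) or the third smart scaffold library (−0.89), and in edgeR (−0.95, adjusted p = 0.125). It was also lost with a pseudocount of 4 (−0.94) and in a limma fit of the compared groups alone (−1.17, adjusted p = 0.104). CARS2, AARS2 and IARS2 changed by less than 2-fold on both scaffolds, with log2 changes on the media and the smart scaffold of −0.77 and −0.76 for CARS2, −0.42 and −0.58 for AARS2, and 0.58 and 0.61 for IARS2.

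Measured against day 0 on plastic, a comparison in which time, medium and substrate differ together, scaffold cells had lower levels of most members. On the media scaffold 5 cytosolic members were called lower and 0 higher, where 14.9% of all tested genes were lower and 17.5% higher, and by the adjusted p alone 16 of 20 fell and 1 rose, where 30.9% and 32.5% of all genes did. On the smart scaffold 2 were called lower and 0 higher, where 14.1% of all tested genes were lower and 16.5% higher, and by the adjusted p alone 16 of 20 fell and 1 rose, against 29.9% and 30.8% of all genes. The medians were −0.69 and −0.58, against −0.00041 and −0.0032 over all genes. With the same total in every library, which shifted the median of all genes by −0.246 and −0.224, 9 and 7 cytosolic members were called, all lower. Of all tested genes, 2271 on the media and 2155 on the smart scaffold were then called lower, rather than 1635 and 1546.

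CARS had the largest cytosolic fall on both scaffolds, with 150.2, 131, 164 and 138 normalized reads on the media scaffold, 168, 173 and 189.7 on the smart scaffold and 464, 469 and 527 at day 0 (log2 changes −1.73 and −1.45, limma, Benjamini-Hochberg adjusted p = 1.89e-07 and 4.42e-06). Scaffold and day 0 libraries were far apart. YARS had 549, 522, 532 and 498 on the media scaffold, 518, 568 and 616 on the smart scaffold and 1519, 1585 and 1505 at day 0 (log2 changes −1.55 and −1.44). FARSA (−1.30), VARS (−1.26) and FARSB (−1.01) were the other calls on the media scaffold, and on the smart scaffold they changed by −0.94, −0.95 and −0.74. QARS rose on both, to 839.6 ± 49.4 on the media scaffold (SD, n = 4) and 679 ± 36.8 on the smart scaffold (n = 3), against 447 ± 21.8 at day 0 (n = 3). Of the mitochondrial members 1 was called lower on the media scaffold and 2 on the smart scaffold, and VARS2 changed by −0.90 on the media scaffold and was called on the smart scaffold (−1.48). By the adjusted p alone 7 and 8 of 14 fell on the media and the smart scaffold and 0 rose, with medians of −0.48 and −0.44. The single mitochondrial call on the media scaffold became 2 without its first library. FARSB on the media scaffold was just past the fold threshold and fell below it without the second (−0.98) or the third library (−0.99) of day 0, or without the second media scaffold library (−0.97).

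The last comparison asked whether it mattered that the growth factors were bound to the scaffold or dissolved in the medium, and the log2 changes of the 34 tested members ran from −0.57 to 0.42. With limma 0 cytosolic and 0 mitochondrial members were called, where 0.073% of all tested genes were called higher and 0.83% lower. The count was 0 by the adjusted p alone too, where 0.693% of all tested genes rose and 1.66% fell. At an unadjusted p under 0.05, 7 cytosolic members and 1 mitochondrial one were found, and edgeR gave 0 at an adjusted and 8 at an unadjusted p under 0.05. The smart scaffold libraries of 7 cytosolic members lay wholly above the media scaffold's and those of 2 wholly below, where 10% and 10.4% of all tested genes did so. The phenylalanine subunit FARSA was at 183, 189 and 213 on the smart scaffold and 174, 139, 145 and 148 on the media scaffold (log2 change 0.36, 95% interval 0.08 to 0.65). VARS had 1142, 1276 and 1197 on the smart and 883, 1057, 928 and 1035 on the media scaffold (log2 change 0.31, 0.04 to 0.58). QARS was lower on the smart scaffold, at 642, 716 and 680.5 against 819.9, 912, 824 and 803 on the media scaffold (log2 change −0.30, −0.55 to −0.06), and the smart scaffold's VARS2, at 66.0, 94.6 and 71.3, was below the 153, 99.5, 113 and 97.7 of the media scaffold (log2 change −0.57, −0.93 to −0.22). In a limma fit of these 7 libraries alone, 6 cytosolic members (FARSA, VARS, FARSB, GARS, AARS and QARS) and VARS2 passed the adjusted p, at log2 changes of −0.57 to 0.36. Over all tested genes that fit called 14 higher and 121 lower, where the main fit called 8 and 91. Its all-gene share by the adjusted p alone was not computed, so these passes cannot be set against the shares above.

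Several members with a double role were followed through every comparison. EPRS, the joint enzyme of glutamate and proline, changed against day 0 by −0.41 at day 3 and −1.09 at day 21 on plastic, −0.33 on the media scaffold and −0.30 on the smart scaffold, and against plastic at day 21 by 0.76 on the media scaffold and 0.80 on the smart scaffold, all as log2 changes. It averaged 1357 ± 28.7 normalized reads on plastic at day 21, 2299 ± 65.5 on the media scaffold and 2362 ± 148 on the smart scaffold, with 2898 ± 19.4 at day 0 (SD, n = 2, 4, 3 and 3). It fell against day 0 in all 4 groups and rose on both scaffolds against plastic. GARS, which serves both compartments in human cells, changed against day 0 by −0.79 at day 3 and −1.27 at day 21 on plastic, −0.66 on the media scaffold and −0.43 on the smart scaffold, and against plastic at day 21 by 0.61 on the media scaffold and 0.84 on the smart scaffold. KARS, the lysine enzyme of both compartments, changed by −0.24 at day 3 and −0.69 at day 21 on plastic, −0.68 on the media scaffold and −0.75 on the smart scaffold, and its scaffold levels stayed close to plastic at day 21, with log2 changes of 0.02 (95% interval −0.21 to 0.24) on the media scaffold and −0.06 (−0.29 to 0.18) on the smart scaffold. KARS had 1837 and 1385 on plastic at day 21 and 2561, 2545 and 2617 at day 0, with both day 21 libraries below all 3 of day 0. WARS, which rose on plastic at day 21, fell in the other groups against day 0, by 0.38 at day 3, 0.45 on the media scaffold and 0.40 on the smart scaffold on the log2 scale. Of the 8 synthetases held in the multi-synthetase complex, 3 were called lower and 1 higher on plastic at day 21 against day 0, where 24.1% of all tested genes were called lower and 21.2% higher. On both scaffolds 3 of them (DARS, IARS and RARS) were called higher than on plastic and 0 lower, where 20.8% of all tested genes were called higher on the media and 21.4% on the smart scaffold.

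Phenylalanine is charged in the cytosol by an enzyme built from FARSA and FARSB, its catalytic and its larger subunit, and in mitochondria by the single-chain FARS2. Against day 0, FARSA changed by −0.46 at day 3 and −0.92 at day 21 on plastic, −1.30 on the media scaffold and −0.94 on the smart scaffold, and FARSB by −0.16 at day 3 and −0.83 at day 21 on plastic, −1.01 on the media scaffold and −0.74 on the smart scaffold. Both subunits had negative changes in all 4 groups, of which that of FARSB at day 3 did not pass. FARS2 changed by 0.00 at day 3 and −0.12 at day 21 on plastic, −0.56 on the media scaffold and −0.42 on the smart scaffold, and the changes on the 2 scaffolds passed. Against plastic at day 21, the log2 changes on the media and the smart scaffold were −0.38 and −0.02 for FARSA, −0.17 and 0.09 for FARSB, and −0.44 and −0.31 for FARS2. Between day 21 and day 3 on plastic, FARSA, FARSB and FARS2 had log2 changes of −0.46, −0.67 and −0.12, and EPRS, GARS and KARS of −0.68, −0.48 and −0.45. Between the smart and the media scaffold, EPRS differed by 0.04, WARS by 0.06, GARS by 0.23, KARS by −0.07, FARSB by 0.26 and FARS2 by 0.14 on the log2 scale, none of which passed.

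Cytosolic and mitochondrial enzymes of the same amino acid were set side by side in 14 pairs, in which FARSA and FARSB share FARS2. Leucine could not be paired because LARS2 was not tested. Genes are not replicates of a compartment, so the difference between compartments is given as a description. At day 3 the cytosolic log2 change was below the mitochondrial one in 13 of 14 pairs, with a median difference of −0.45, and valine was the exception (VARS 0.03, VARS2 −0.33). Isoleucine had the widest gap, with −1.25 for IARS and 0.16 for IARS2. On plastic at day 21 the count was 10 of 14 (median difference −0.64). For asparagine the mitochondrial enzyme was lower (NARS −1.66, NARS2 −4.11), and for tryptophan the cytosolic enzyme rose while WARS2 had a log2 change of 0.00 (95% interval −0.33 to 0.33). Against day 0 the counts were 10 of 14 on the media scaffold and 8 on the smart scaffold, and against plastic at day 21 they were 5 on each. Between day 21 and day 3 on plastic the count was 8, and between smart and media scaffold 2. For asparagine both enzymes were called lower on plastic at day 21 against day 0 and higher on each scaffold against plastic, with the loss of NARS on the media scaffold given above.

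**Figure D4:**
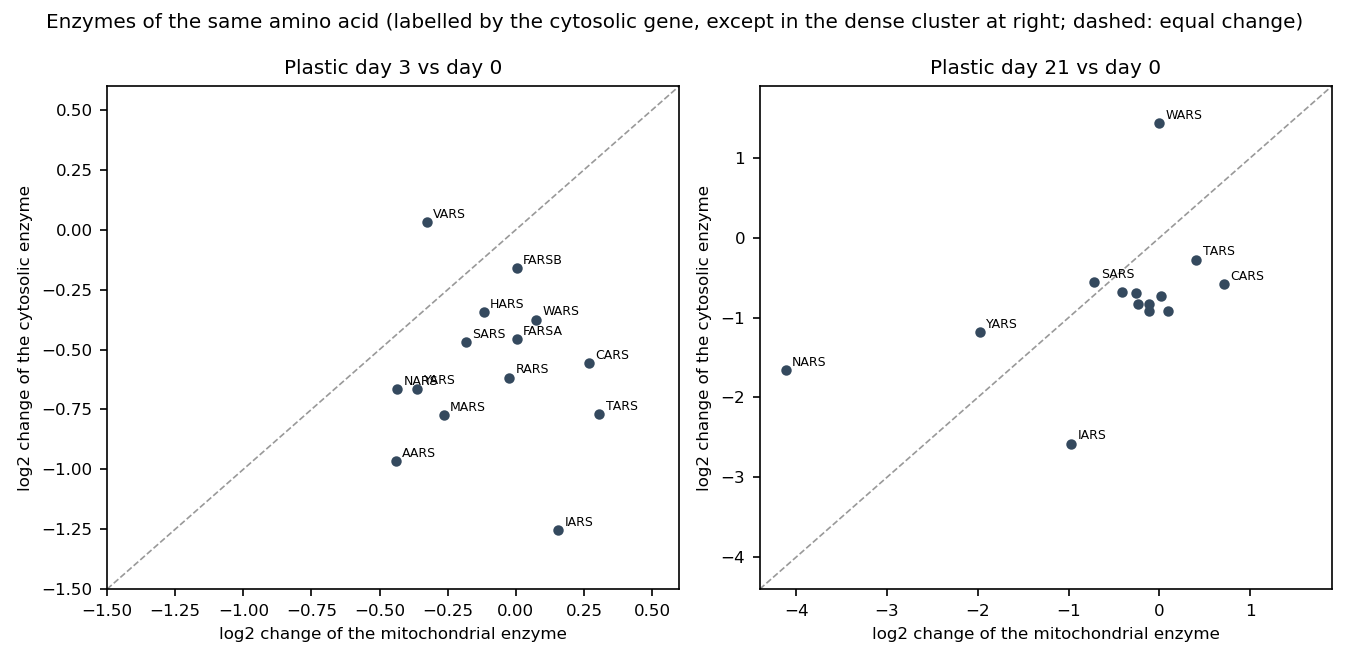
Log2 change of the cytosolic enzyme (vertical axis) against that of the mitochondrial enzyme of the same amino acid (horizontal axis), for 14 pairs at day 3 (left) and day 21 (right) on plastic against day 0. Points below the dashed line of equal change number 13 of 14 at day 3 and 10 of 14 at day 21.

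Summed over all 20 cytosolic members, the family held 20519, 22312 and 21663 normalized reads in the libraries of day 3, against 30206, 30948 and 30425 at day 0. At day 21 the sum was 19732, 19178, 19933 and 19413 on the media scaffold and 20558, 21572 and 21537 on the smart scaffold, with 21335 and 24669 on plastic. Every library of day 0 lay above all later ones, and the later groups overlapped in part. Without WARS the plastic sum at day 21 was 14946 and 16051, below the 17192 to 19418 of the 7 scaffold libraries. WARS is the member with the highest level in these plastic libraries. Leaving it out lowers the plastic sum most, so the order without it is a description and no test. The 15 mitochondrial members summed to 3470.5 ± 328 at day 3 and 3358 ± 43.1 at day 0 (SD, n = 3 each). At day 21 they summed to 2482 ± 74.9 on the media scaffold (n = 4), 2487 ± 103 on the smart scaffold (n = 3) and 2751 ± 12.1 on plastic (n = 2). These sums weight members by their levels, so the most abundant dominate.

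**Figure D5:**
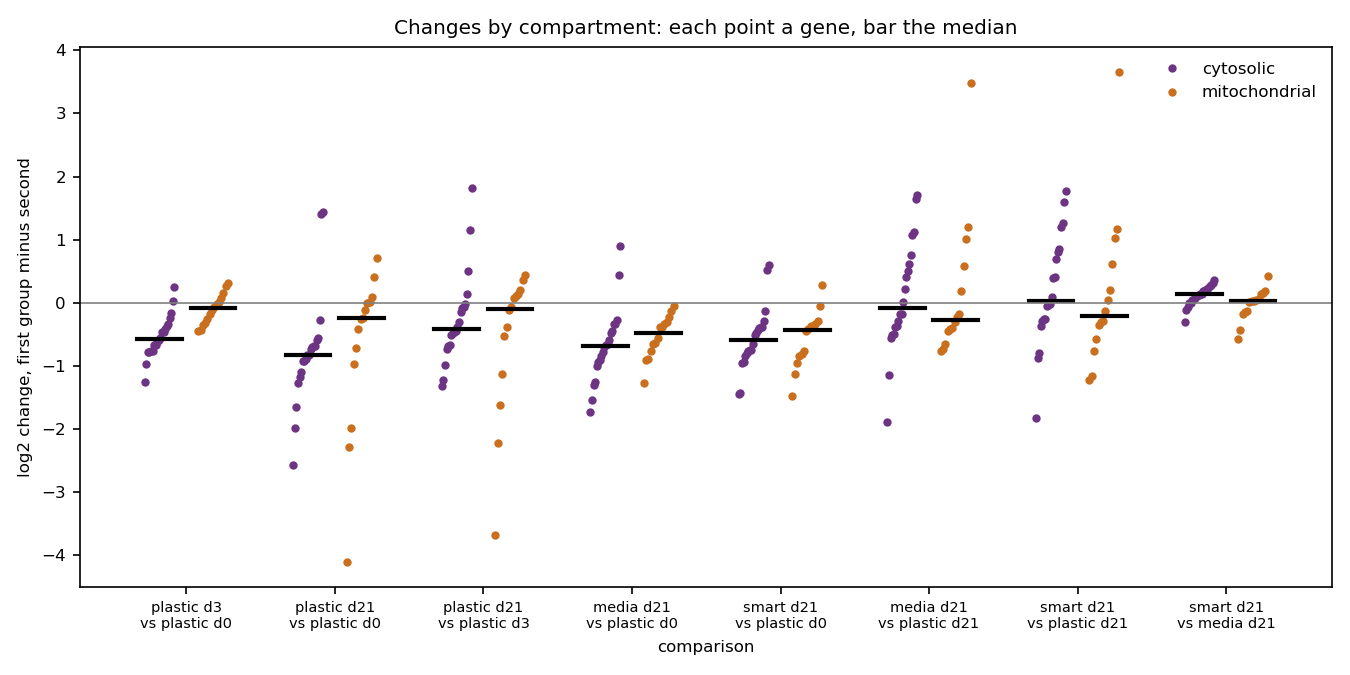
Log2 changes of cytosolic (left in each column) and mitochondrial (right) members in the 8 comparisons on the horizontal axis, with a point for each gene and a bar at the median. At day 3 the cytosolic median is −0.57 and the mitochondrial one −0.09, and on plastic at day 21 against day 0 they are −0.83 and −0.25. NARS2 is the lowest point on plastic at day 21.

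Other genes of the tRNA pathway were read beside the synthetases. Against day 0, 24.1% of all tested genes were called lower on plastic at day 21, 14.9% on the media scaffold and 14.1% on the smart scaffold. Against plastic at day 21, 20.8% were called higher and 14.6% lower on the media scaffold, and 21.4% higher and 16% lower on the smart scaffold. Of the 3 proteins that hold the multi-synthetase complex together, 2 were called lower on plastic at day 21 against day 0, EEF1E1 with a log2 change of −2.16 and AIMP1 with −1.48. EEF1E1 averaged 146 ± 36.0 normalized reads on plastic at day 21 (SD, n = 2) and 646 ± 13.0 at day 0 (n = 3), and against plastic at day 21 it was called higher on the smart scaffold (1.10). At day 3 all 3 fell without reaching the fold threshold, where 15.3% of all tested genes fell. Of the 5 enzymes that make glutamine tRNA by amidation or handle formyl-methionine in mitochondria, 5 were called lower on the media scaffold and 3 on the smart scaffold against day 0, with GATB (−1.42 and −1.38) and QRSL1 (−1.38 and −1.35) as examples, and 2 on plastic at day 21, GATC (−1.91) and MTFMT (−1.53). Of 10 mitochondrial translation factors 2 were called lower on plastic at day 21, led by the elongation factor GFM1 (−1.94), which was called higher on the media (1.66) and the smart scaffold (1.73) than on plastic. The share of factors called lower on plastic was near that of all genes. Against day 0, 3 factors were called lower on the media and 3 on the smart scaffold. The initiation factor MTIF3 was called lower on the smart scaffold than on plastic at day 21 (−1.21). The cytosolic elongation factors had 0 of 5 tested members called in any of the 8 comparisons. By the adjusted p alone 2 of them fell at day 3, where 15.3% of all tested genes did. On the media and the smart scaffold 4 and 5 fell against day 0 by that measure, where 30.9% and 29.9% of all tested genes did.

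Among 21 genes of tRNA end processing, ligation and export, 0 were called at day 3 and 7 were called lower on plastic at day 21, where 24.1% of all tested genes were. The largest of these falls were those of RTCB, the tRNA ligase (−2.37), and TSEN15, of the tRNA splicing endonuclease (−1.60). Against plastic at day 21, 3 were called higher and 2 lower on the media scaffold, and 3 and 1 on the smart scaffold, where 20.8% and 14.6% of all tested genes were called on the media and 21.4% and 16% on the smart scaffold. The shares of these genes called higher were not above those of all genes. TSEN15 (1.74 and 1.80) and RTCB (1.58 and 1.56) were higher, and the RNase P and MRP protein POP1 lower (−1.56 and −1.37). XPOT, which exports tRNA from the nucleus, was also higher, at 71.8 ± 13.5 on the media scaffold (SD, n = 4) and 77.4 ± 6.44 on the smart scaffold (n = 3), with 25.1 ± 8.21 on plastic (n = 2). Of 5 tested entries on a mixed list of further tRNA-related genes (AARSD1, DTD1, PTRH2 and YRDC), 2 were called lower on plastic at day 21, YRDC (−1.53) and PTRH2 (−1.28). AARSD1 stands among them under 2 gene identifiers, with log2 changes of −0.53 and 0.12 on plastic at day 21. Of 6 genes of the selenocysteine tRNA pathway, 1 was called lower there, SECISBP2 (−1.07), with the same 24.1% of all tested genes beside both counts. Of 13 cytosolic synthetases known in human and mouse as amino acid response targets, 11 fell at day 3, where 15.3% of all tested genes did, with a median of −0.66. Against plastic at day 21, 2 of the 13 were called higher and 2 lower on the media scaffold (median 0.22). On the smart scaffold 2 were called higher and 1 lower (median 0.40). Of all tested genes, 20.8% and 14.6% were called on the media scaffold and 21.4% and 16% on the smart scaffold. The 21 tested amino acid response genes outside the family had 14 called lower at day 3 (median −1.25), where 3.73% of all tested genes were. On plastic at day 21 against day 0, 16 were called lower and 1 higher (median −2.05), where 24.1% and 21.2% of all tested genes were. There ATF4 changed by −0.12, which did not pass, and NUPR1, the called rise, by 6.04. Against day 0, 9 were called lower and 3 higher on the media scaffold, and 7 and 3 on the smart scaffold. Of all tested genes, 14.9% were lower and 17.5% higher on the media scaffold, and 14.1% and 16.5% on the smart scaffold. Against plastic at day 21, 12 were called higher on the media and 12 on the smart scaffold (medians 1.21 and 1.37). Of all tested genes, 20.8% and 21.4% were. The cytosolic members were also grouped by catalytic fold, a grouping chosen after their values were seen, and EPRS, which holds one of each, was left out. At day 3, 5 of 9 enzymes of class I and 8 of 10 of class II fell, where 15.3% of all tested genes did. The medians of the classes were close, at −0.59 and −0.57.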

How the data were processed

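MARS-seq libraries of bovine mesenchymal stem cells are described for 17 samples in the labels, of which 15 in 5 groups were used. The names of 2 value columns matched no label, so they entered no step, and the scaffold cells of day 0 were not analysed here. A PureLink kit was used for RNA and the Weizmann Institute made the libraries, per the labels' protocols. Per the submitters' processing notes, the tools were cutadapt, STAR, HTSeq and DESeq, and the genome build was ARS-UCD1.2. The sources used here do not say whether strand or molecular identifiers were used in counting.

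The deposited normalized signal holds read counts that the authors divided by 1 size factor per library, and 100% of its values were whole reads after division by the value of 1 read, within a tolerance of 0.1. The tests used log2(value + 1) in limma (version 3.58.1, under R 4.3.3) with trend and robust options, in 1 fit of 15 libraries with a mean per group. Genes with a mean of at least 5 were tested (10960, with 1934 left out), two-sided, with Benjamini-Hochberg adjustment over all tested genes of a comparison. The fit was tested on simulated data.

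Libraries held 2197356 to 15483745 reads, with a median of 7510490, and intervals cover the pooled spread between libraries. Alternatives were pseudocounts of 0.5 and 4, no filter, rescaling to the same total, quantile normalization, the compared groups alone, the replicate number as a block, edgeR 4.0.16 on the recovered reads, and leaving out each library. Members, gene lists and marker lists were chosen with earlier results of these data known. The called members with the largest changes and the enzymes with double roles were named by rule, as were the called list members from which examples are given. The count by the adjusted p alone was added after seeing the data. RefSeq gene spans (ARS-UCD2.0) were used for names and neighbours, matched by symbol for 35 of 35 members. The values of 1 mitochondrial member are not reported here, though the member stays in the counts and medians of its compartment.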

Additional observations from a re-analysis of the deposited data

Results flagged for a closer look

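Of 35 members examined on the media scaffold, the only group with at least 4 libraries, 1 had a library far from the others. SARS, the cytosolic serine enzyme, had 646.6 normalized reads in the fourth media scaffold library and 733.8, 739.3 and 741.1 in the other 3. The gap to the nearest library was 0.923 of the whole range, above Dixon's limit for 4 values. Chance marks about 1 in 20 groups.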

How the results depend on the processing

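Of the 49 member calls over the 8 comparisons, 13 lost the threshold under at least 1 alternative and 0 changed sign. Over 663 values under alternatives, 627 kept direction and side of the threshold and 36 lost it. Those that bear on a named gene stand in the report, and their cause was not tested. With the same total in every library more cytosolic members were called: 13 on plastic at day 21 against day 0 and 7 against day 3. On the media and the smart scaffold 9 and 7 were called against day 0. In the same order, 3276, 3057, 2271 and 2155 of all tested genes were called lower in that setting. The main fit called 2636, 2124, 1635 and 1546 lower. Mitochondrial members called against day 0 with the same total were 4 on the media and 5 on the smart scaffold. With no filter on low values, 2 were called on the media scaffold. Against plastic at day 21, the mitochondrial count on the media scaffold was 1 with a pseudocount of 4, and on the smart scaffold it was 2 with a pseudocount of 4, and 3 in a fit of the compared groups alone and in edgeR. With the compared groups alone, 0 mitochondrial members passed the adjusted p at day 3.

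Leaving out single libraries gave 9 to 15 cytosolic and 0 to 1 mitochondrial members passing the adjusted p at day 3, and 2 to 4 mitochondrial calls on plastic between day 21 and day 3. Against day 0 it gave 1 to 2 mitochondrial calls on the media scaffold. Against plastic at day 21 it gave 3 to 6 cytosolic and 1 to 4 mitochondrial calls on the media scaffold and 3 to 5 mitochondrial calls on the smart scaffold, with the lowest counts without the second plastic library, and also without the third smart scaffold library for the last.

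Replicate numbers are shared between groups, and the main fit did not take them to pair the libraries. Deviations from the group means correlated across genes at −0.0744 to 0.157 over 26 pairs of libraries with the same number. The 2 that exceeded 0.1 were both between plastic at day 3 and at day 21 (0.157 and 0.112). Libraries with different numbers were not set beside them, so these values cannot decide whether the numbers pair the libraries. With the replicate number as a block, 1 mitochondrial member was called on the media scaffold against plastic at day 21. The plastic group of day 21 has 2 libraries, and members with few reads there, such as NARS2, are measured least precisely.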
